A study of Salmo salar with 18 samples.

Results

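A set of 72 liver microarray probes was higher in every warmed Atlantic salmon than in every control fish, at a similar mean level whether or not the water was also low in oxygen. The members were taken from the 11761 probes with a value on all 18 arrays in the authors' processed table. The lowest of the 12 warmed fish had to lie above the highest of the 6 control fish. The warmed mean had to exceed the control mean by at least 1 on the log2 scale, which is a doubling, and the means of both warm treatments had to differ by less than 0.5. Probes that the study also measured by qPCR were left out. The members were thus chosen by the log2 ratios of the WN, WH and CT fish themselves, so the differences from the controls below are descriptions without a test.

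The fish were seawater-reared post-smolts, young salmon that have moved from fresh to salt water, all juveniles fed by hand to satiation. Control (CT) fish stayed at 12 °C and 100% air saturation. Warm and normoxic (WN) fish were warmed in weekly steps from 12 to 20 °C at 100% air saturation. Warm and hypoxic (WH) fish were first brought to 70% air saturation and then warmed in the same steps, and liver was taken within days of reaching 20 °C. Each treatment had 6 fish, 3 from each of 2 tanks, and no tank held more than 1 treatment, so tank and treatment cannot be fully told apart. No group had low oxygen without warming. RNA of each fish was labelled with Cy5 and set against a Cy3-labelled pool of all 18 fish, so a value of 0 is the level of the pool. Because 12 of the 18 fish in the pool were warmed, raised probes lie near 0 in the warmed fish and well below 0 in the controls. These are whole pieces of liver, in which fewer cells of a type and less RNA per cell cannot be told apart.

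Warming makes proteins prone to misfold, and cells answer with heat shock proteins, the chaperones that hold and refold other proteins, and with the cochaperones that steer them. The liver also makes plasma proteins, stores glycogen, handles lipids and bile acids and conjugates foreign compounds. In fish as in mammals it runs much of the body's energy metabolism, which follows temperature in an animal that does not regulate its own.

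Of the 11761 complete probes, 108 (0.918%) had all 12 warmed fish above all 6 controls. A difference of at least 1 was met by 77 of these and the limit between WN and WH by 73, of which 1 was a qPCR probe. The mirrored rule, with the warmed fish below the controls, found 98 probes. Of the 72 members, 69 carried a gene symbol in the study's annotation, with 59 different symbols among them, and 55 could be matched to a current RefSeq gene in assembly Ssal_v3.1. The difference between the warmed and the CT mean ran from 1.00 to 3.34 with a median of 1.42, a median fold of 2.68, and it was at least 2 in 15 members. The gap between the lowest warmed and the highest CT fish ran from 0.00030 to 1.82 with a median of 0.30. It was at least 0.5 in 20 members and under 0.1 in 11.

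**Figure D1:**
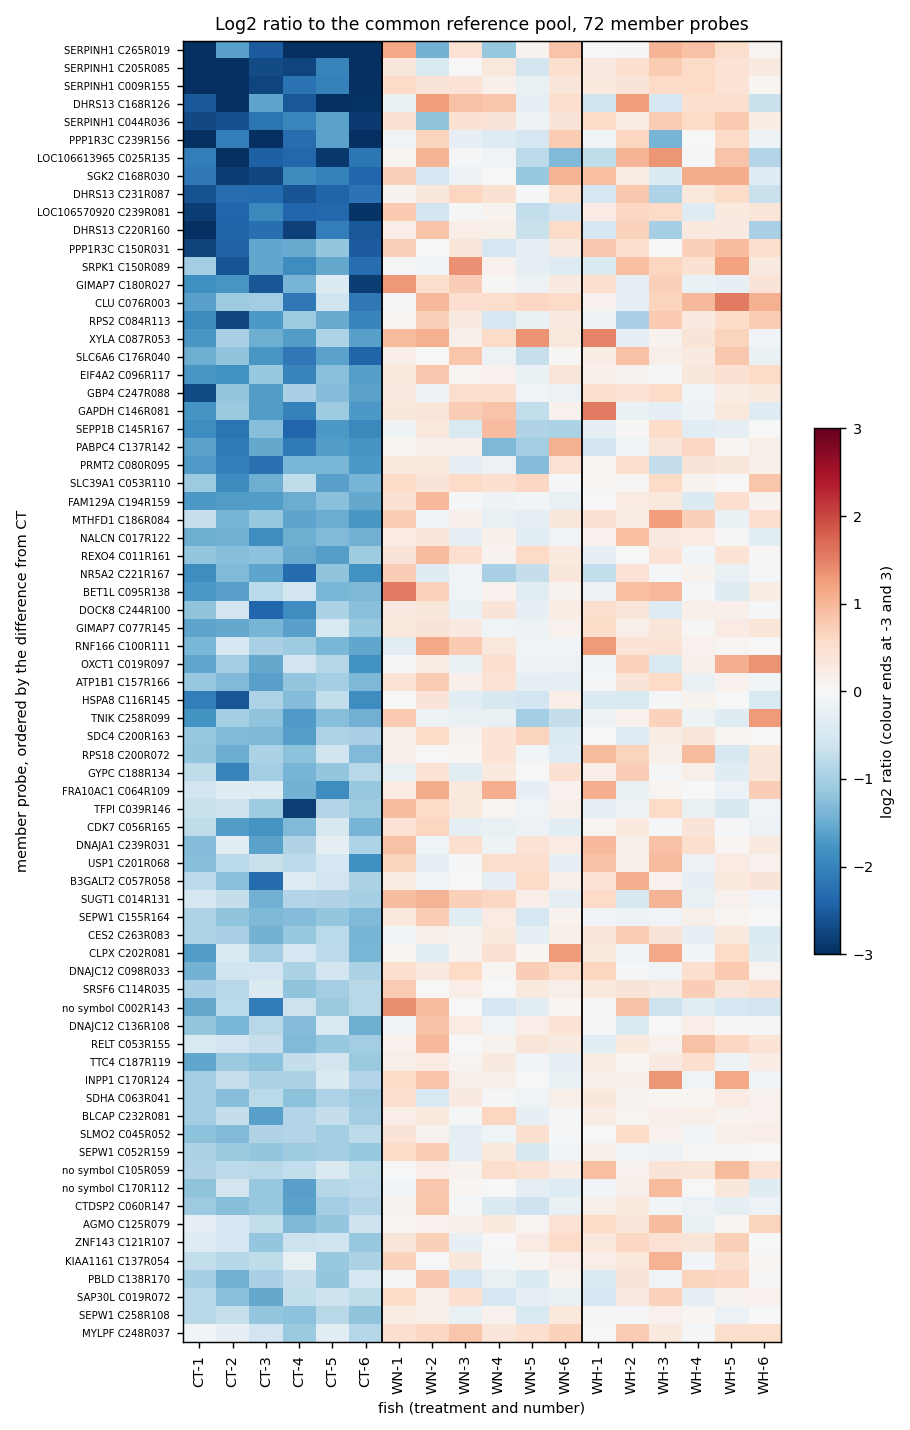
Log2 ratio of each of the 18 fish to the common reference pool (colour, from blue for below the pool to red for above) for the 72 member probes, ordered by the difference between warmed and CT mean. The 6 CT columns are below the pool in all 72 rows, and the WN and WH columns lie near it, with a median difference of 1.42 between warmed and CT fish.

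The collagen chaperone SERPINH1, a heat shock protein of the endoplasmic reticulum also called HSP47, led the set with 4 probes. Probe C205R085 ran from -3.66 to -2.01 in CT fish (median -2.99), from -0.55 to 0.48 in WN fish (median 0.17) and from 0.26 to 0.77 in WH fish (median 0.45). Probe C009R155 ran from -3.31 to -2.03 in CT (median -2.91), -0.21 to 0.58 in WN (median 0.38) and 0.06 to 0.61 in WH (median 0.40). The warmed fish of both probes sat close together, and the gap to the controls, 1.46 and 1.82, was among the widest of the set. The warmed mean was higher by 3.24 for C205R085, 9.43-fold, and by 3.11 for C009R155, 8.61-fold. Probe C265R019 had a difference of 3.34, 10.2-fold, in the authors' values and of 2.76 in the scanner values, where C205R085, C009R155 and the DHRS13 probe C168R126 lay above it at 3.29, 3.12 and 2.85. Its fish were more scattered, from -5.10 to -1.64 in CT, -1.41 to 1.16 in WN and -0.06 to 1.01 in WH. On that probe the CT fish were above background in the Cy5 channel on 3 of 6 arrays, so its lowest CT values are the least certain. Probe C044R036 ran from -2.87 to -1.60 in CT, -1.22 to 0.46 in WN and 0.22 to 0.78 in WH, a difference of 2.61. Of these probes, 3 matched the same RefSeq gene, LOC106581278. A further SERPINH1 probe, C236R132, which matches another copy of the gene and is among the qPCR probes, had values for 4 of 6 CT fish and was higher than CT by 3.74 in WN and 4.37 in WH in the authors' values, and by 2.42 and 2.90 in the limma fit described below.

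The remaining members that belong to the protein folding machinery were 8 probes of 7 genes, with smaller differences. Clusterin (CLU, C076R003), a secreted chaperone of misfolded proteins, ran from -2.14 to -0.60 in CT fish (median -1.35), -0.03 to 0.97 in WN (median 0.55) and -0.27 to 1.56 in WH (median 0.83). Its warmed mean was higher by 2.04, 4.12-fold. HSPA8 (C116R145), the constitutive cytosolic HSP70, ran from -2.57 to -0.75 in CT (median -1.58), -0.56 to 0.38 in WN (median -0.16) and -0.46 to 0.11 in WH (median -0.22). The difference for HSPA8 was 1.41, 2.66-fold, and its CT fish spread over a wider range than its warmed fish. DNAJA1, an HSP40 partner of HSP70, was higher by 1.28, the HSP90 cochaperone SUGT1 by 1.25 and TTC4, another cochaperone, by 1.17. CLPX, the unfolding subunit of a mitochondrial protease, was higher by 1.23. DNAJC12, a J-domain cochaperone known in mammals for its action on aromatic amino acid hydroxylases, had 2 member probes of one transcript with differences of 1.22 and 1.20.

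Of the list of heat shock chaperones and cochaperones drawn up for the set, 27 probes that are not members also had a name. Names were taken only from the study's entries for probes called in WN, so every list below was selected on this contrast. Of these entries 417 could not be read, nearly all of lowered probes, so the lists under-represent lowered probes. Its entries for probes called in WH were not used. Of all 1412 named non-members, 20.8% passed as higher and 25.8% as lower in WN in a limma fit, and 15.6% and 16.9% in WH, where 1.86% of all 23846 probes passed as higher in WN and 2.42% in WH. The list counts are given as descriptions, and nothing is read from them. In that fit 18 of the 27 were higher and 2 lower in WN than in CT at an adjusted p under 0.05, and 16 were higher and 1 lower in WH. Their median difference from CT was 1.15 in WN and 1.06 in WH, where the median over all probes tested, named or not, was 0.01 and 0.04. Both DNAJA4 probes, with 2.09 and 1.44 in WN and 2.36 and 1.92 in WH, and HSP90AA1, with 1.36 in WN and 1.97 in WH on C182R027, were among those outside the rule. DNAJA4 on C194R097 did not pass in WN, at an adjusted p of 0.0948 in the limma fit. HSF1 on C101R087, C084R079 and C111R025 passed in neither treatment. The mitochondrial chaperonin HSPD1 was lower than in CT, at -1.08 in WN and -1.08 in WH on probe C126R097. SERPINH1 was placed on the heat shock list, although its protein belongs to the endoplasmic reticulum. The endoplasmic reticulum folding list and the list of stress transcription factors, with 11 named probes each, held no member. Of the former, 6 passed as higher and 0 as lower in each warm treatment. Of the latter, 5 passed as higher and 0 as lower in WN, and 6 and 1 in WH.

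Glucose and lipid enzymes and carriers made up the next largest list, with 11 members. DHRS13, a short-chain dehydrogenase/reductase, had 3 probes that match the same gene, dhrs13b.1. Probe C168R126 ran from -3.74 to -1.59 in CT fish (median -2.76), -0.28 to 1.24 in WN (median 0.68) and -0.67 to 1.25 in WH (median -0.03), a difference of 3.03 or 8.16-fold. C231R087 ran from -2.62 to -2.21 in CT (median -2.36), -0.06 to 0.64 in WN (median 0.39) and -0.93 to 0.81 in WH (median -0.09), a difference of 2.53. C220R160 ran from -2.99 to -2.08 in CT, -0.66 to 0.85 in WN and -0.996 to 0.70 in WH, a difference of 2.52. On all 3 probes the WH mean lay below the WN mean, with differences of -0.43, -0.39 and -0.42.

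PPP1R3C, which brings protein phosphatase 1 to glycogen and favours glycogen synthesis, had 2 member probes from different genome copies. C239R156 ran from -3.17 to -1.60 in CT (median -2.72), -0.50 to 0.76 in WN (median -0.17) and -1.38 to 0.64 in WH (median -0.05), a difference of 2.55 or 5.86-fold. C150R031 ran from -2.77 to -1.16 in CT (median -1.98), -0.50 to 0.70 in WN (median 0.13) and -0.01 to 0.93 in WH (median 0.62), a difference of 2.32 or 5.00-fold. These 2 probes were thus raised to a similar extent, while the WH mean minus the WN mean was -0.11 on the first and 0.48 on the second. A further probe annotated to the first copy, C099R072, was higher by 1.47 in WN and 1.49 in WH in the authors' values. It had values for 5 of 6 WN fish, and its warmed and CT fish overlapped. C239R156 was above background in the Cy5 channel on 5 of 6 CT arrays. The taurine transporter SLC6A6 (C176R040) was higher by 1.95, with -2.41 to -1.20 in CT, -0.70 to 0.82 in WN and -0.20 to 0.88 in WH. The glycolytic enzyme GAPDH was higher by 1.78 and MTHFD1, a folate enzyme, by 1.64. The name of this MTHFD1 probe, C186R084, rests on a protein match, and its nucleotide match named no gene. Another probe, C062R014, matched mthfd1 by nucleotide and lay at -0.91 in WN and -0.12 in WH in the authors' values, without passing in the fit. NR5A2 is a nuclear receptor of bile acid and cholesterol genes, but the probe so named, C221R167, matched a gene now called nr5a5. This may be a different gene of the family. The probe was higher by 1.55. OXCT1, which activates ketone bodies for use, was higher by 1.46 and the carboxylesterase CES2 by 1.24. Of the 34 named non-member probes on this list, 22 were higher and 2 lower in WN, and 15 were higher and 1 lower in WH. The list held 29 symbols picked with earlier results known, and nearly all unread names were of lowered probes. The count therefore does not stand for metabolic genes at large. The paper found metabolic terms among the most highly enriched for its down-regulated genes in both treatments.

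Several of the largest differences belonged to genes outside the lists. C025R135, annotated as an FMO5-like flavin monooxygenase (LOC106613965), a family that oxidises drugs and lipids, ran from -3.14 to -2.08 in CT (median -2.40), -1.32 to 1.03 in WN (median -0.08) and -0.89 to 1.33 in WH (median 0.40), a difference of 2.54. SGK2 (C168R030), a kinase related to the glucocorticoid-induced SGK1, ran from -2.86 to -1.89 in CT (median -2.26), -1.13 to 1.02 in WN (median -0.09) and -0.41 to 1.10 in WH (median 0.57), a difference of 2.54. C239R081, LOC106570920, annotated as a probable carbonyl methylesterase, ran from -2.93 to -1.94 in CT (median -2.38), -0.75 to 0.80 in WN (median -0.29) and -0.39 to 0.63 in WH (median 0.32), a difference of 2.53. In all 3 the WN fish were spread more widely than the controls, and on C025R135 and SGK2 the WH fish were too, without reaching them. On C239R081 the SD was 0.36 in both CT and WH fish and 0.58 in WN fish. XYLA (C087R053), a match to xylose isomerase, an enzyme best known from microbes and plants, was higher by 1.96.

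**Figure D2:**
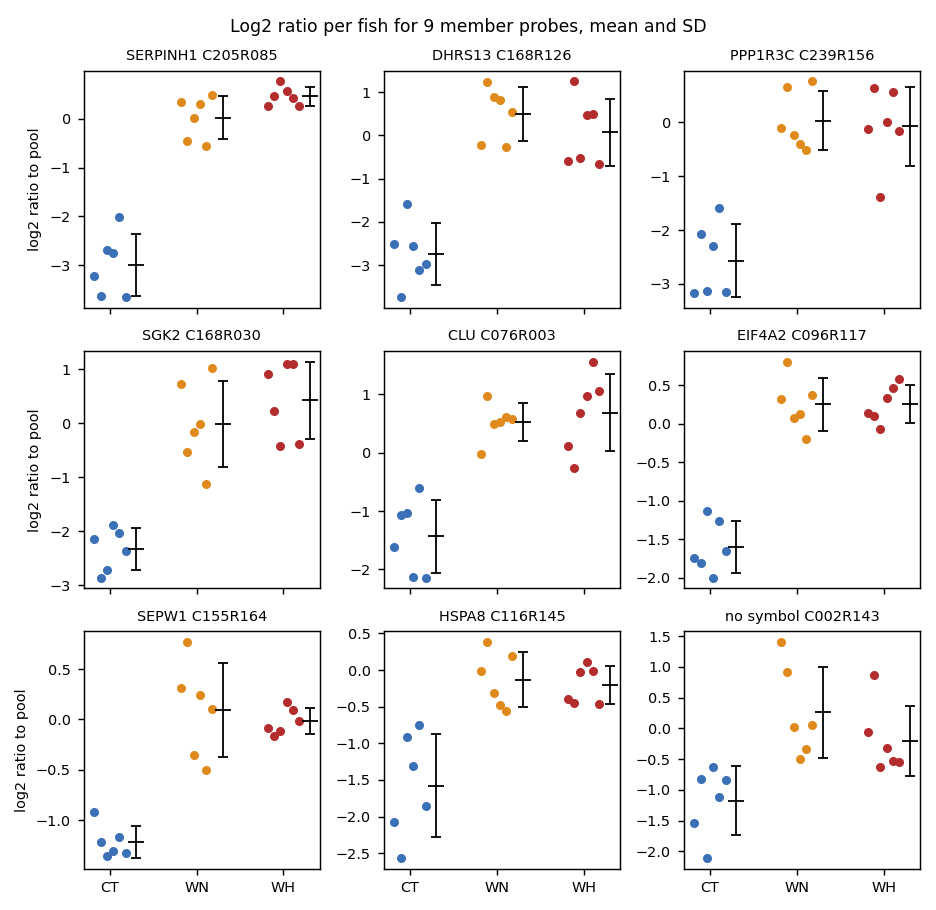
Log2 ratio to the pool for each fish (points) with the mean and SD of the 6 fish beside them, for 9 member probes in CT, WN and WH. SERPINH1 (C205R085) shows a gap of 1.46 between the lowest warmed and the highest CT fish, whereas the probe without a symbol (C002R143) has the narrowest gap, 0.00030.

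The list of splicing and RNA processing genes held 3 members. SRPK1 (C150R089), a kinase of SR splicing factors whose probe best matches an SRPK2-like transcript, ran from -2.59 to -1.05 in CT (median -1.70), -0.38 to 1.36 in WN (median -0.06) and -0.42 to 1.22 in WH (median 0.55), a difference of 2.13 or 4.37-fold. PABPC4, a poly(A)-binding protein, was higher by 1.77 and the splicing factor SRSF6 by 1.22. SRSF6 was the more uniform of these, with -0.02 to 0.77 in WN and 0.27 to 0.73 in WH against -1.21 to -0.42 in CT. On the splicing list, 17 of 27 named non-members were higher and 4 lower in WN, and 14 were higher and 3 lower in WH. Among those 4 and those 3 was CIRBP, the cold-inducible RNA-binding protein, at -1.002 in WN and -1.24 in WH on probe C107R130.

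Of the translation genes, RPS2 and RPS18 of the small ribosomal subunit and the initiation helicase EIF4A2 were members. RPS2 (C084R113) ran from -2.75 to -1.10 in CT (median -1.81), -0.53 to 0.71 in WN (median 0.17) and -0.96 to 0.78 in WH (median 0.42), a difference of 1.98. EIF4A2 (C096R117) ran from -2.0004 to -1.13 in CT (median -1.70), -0.20 to 0.81 in WN (median 0.23) and -0.07 to 0.59 in WH (median 0.24). It was higher by 1.86, and its WN and WH means differed by 0.01. RPS18 was higher by 1.36. Ribosomal protein genes have many near-identical copies in this genome, so which copy the RPS2 and RPS18 probes report is uncertain.

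The immune list held 4 member probes. GIMAP7, a GTPase of the immunity-associated family studied mostly in lymphocytes, had 2 probes from different loci. C180R027 ran from -2.84 to -0.40 in CT (median -1.79), -0.15 to 1.30 in WN (median 0.40) and -0.27 to 0.72 in WH (median 0.09), a difference of 2.09. C077R145, a weaker match, ran from -1.62 to -0.47 in CT, -0.15 to 0.38 in WN and 0.04 to 0.54 in WH, a difference of 1.50. GBP4, of the interferon-induced guanylate-binding proteins, was higher by 1.80 and DOCK8, an exchange factor of white blood cells, by 1.50. Of the 24 named non-members on the immune list, 12 were higher in WN and 11 in WH, and 0 were lower in either.

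Selenoproteins were 4 members. SEPP1B, a form of selenoprotein P, which carries selenium in plasma, was higher by 1.77, with -2.38 to -1.27 in CT, -0.95 to 0.92 in WN and -0.31 to 0.55 in WH. SEPW1, a small selenoprotein with a thioredoxin-like fold, had 3 probes on one transcript, with differences of 1.25, 1.13 and 1.00. Probe C155R164 ran from -1.36 to -0.92 in CT (median -1.26), -0.50 to 0.77 in WN (median 0.17) and -0.17 to 0.18 in WH (median -0.05). The 6 WH fish lay within less than 0.5 of each other on all 3 SEPW1 probes, a tighter range than the WN fish. Of the 18 named non-members on the redox list, 8 were higher and 2 lower in WN, and 4 were higher and 1 lower in WH. The peroxidase PRDX1 was lower on probe C142R084, at -0.73 in WN and -1.004 in WH.

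The cell death list and the ubiquitin and proteasome list held 1 member each. BLCAP, which promotes apoptosis when overexpressed in human cells, was higher by 1.14. The deubiquitinase USP1 was higher by 1.26. Of the 75 named non-members on the ubiquitin and proteasome list, 38 were lower and 8 higher in WN, and 18 were lower and 3 higher in WH.

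The other members, on none of the pathway lists, had differences between 1.00 and 1.74. They held the membrane transport genes SLC39A1, a zinc importer (1.72), NALCN, a sodium leak channel (1.61), and ATP1B1, the beta subunit of the sodium pump (1.44). Signalling and surface proteins among them were TNIK, a kinase of the Wnt pathway (1.39), SDC4, a heparan sulfate proteoglycan (1.38), RELT, a receptor of the tumour necrosis factor family (1.20), and INPP1, an inositol phosphatase (1.17). Nuclear proteins were PRMT2, an arginine methyltransferase (1.74), REXO4, an exonuclease (1.59), FRA10AC1 (1.30), CDK7, the kinase of transcription factor IIH (1.28), CTDSP2, a phosphatase of RNA polymerase II (1.12), ZNF143, a transcription factor (1.08), and SAP30L, of a histone deacetylase complex (1.02). Mitochondrial genes were SDHA, a subunit of succinate dehydrogenase (1.15), and SLMO2, a carrier of phospholipids (1.14). TFPI, the inhibitor of tissue factor that restrains clotting, was higher by 1.30. BET1L, of Golgi vesicle fusion (1.53), RNF166, a ubiquitin ligase (1.48), FAM129A (1.70), B3GALT2, a galactosyltransferase (1.26), AGMO, which cleaves ether lipids (1.08), KIAA1161, now named myorg, a glycosidase (1.05), and PBLD (1.03) were further members, as were GYPC (1.34) and MYLPF (1.00). The 3 probes without a symbol were C002R143 (1.20), C105R059 (1.13) and C170R112 (1.12).

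**Figure D3:**
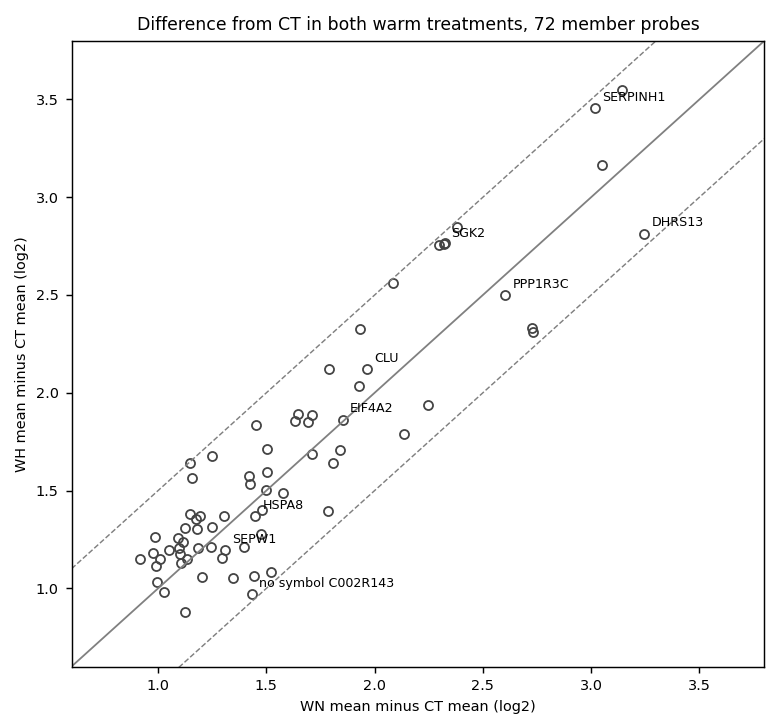
WH mean minus CT mean (vertical, log2) against WN mean minus CT mean (horizontal, log2), 1 circle per member probe (n = 72), with the line of equality and dashed lines at 0.5 either side, which the rule set. Both axes share the CT fish, and the differences from CT run from 0.92 to 3.25 in WN and from 0.88 to 3.55 in WH.

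The similarity of both warm treatments was a condition of the rule, so it is given here as a description with its precision. The WH mean was above the WN mean in 47 members and below it in 25, the difference ran from -0.46 to 0.49 with a median of 0.11, and 48 members were within 0.25. In the limma fit the 95% interval of the WH minus WN difference had a median reach of 0.48 either side of the difference and a range of 0.36 to 0.81. It held 0 in all 72 members and lay within 1 either side of 0 in 64. It lay within 0.5 either side in 10, so for the other 62 the interval from 6 fish per treatment also held differences larger than the rule's own limit. In the limma fit 0 members passed between WH and WN, at an adjusted or an unadjusted p under 0.05. The rule bounded this difference, so nothing is read from that count. Of all 23846 probes, 0 (0%) passed after adjustment and 1377 (5.77%) at an unadjusted p under 0.05. In the authors' values the 4 SERPINH1 probes were higher in WH than in WN by 0.11 to 0.47, and the 3 DHRS13 probes lower, at -0.39 to -0.43. The interval of each of these probes held 0.

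In the same fit 72 of 72 members passed as higher in WN than in CT, where 1.86% of all probes did, and 71 passed as higher in WH, where 2.42% did. The rule used this contrast, and nothing is read from the counts. The exception in WH was C002R143, with 0.73 and an adjusted p of 0.127.

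The edges of the rule can be seen in a few probes. MYLPF (C248R037), at 1.00, and SEPW1 (C258R108), at 1.00, were the smallest differences inside the limit, and a PBLD probe, C069R048, at 0.99, and the cholesterol transporter NPC1L1, at 0.99, were just outside. MYLPF is a muscle myosin light chain, but the probe itself best matched nuclear transport factor 2. TNIK, with a WH minus WN difference of 0.49, and PPP1R3C, with 0.48, were just inside the limit between treatments. The 4 probes it kept out were MMP13 at -0.51, ABAT at 0.55, MPDZ at -1.08 and LOC106563387 at 1.46. C002R143 and PBLD (C138R170) had the narrowest gaps between warmed and CT fish, 0.00030 and 0.01. Another PBLD probe, C167R163, and LOC106574524 just failed, with gaps of -0.01 and -0.02. PBLD was therefore on both sides of the rule, with differences of 0.99 to 1.06 on its 3 probes.

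The genes of the members had 29 more named probes, for 20 of the symbols, that did not meet the rule. In the authors' values 26 of these were higher than CT in both treatments and 3 were lower in both. By the limma fit 23 were higher in WN and 20 in WH at an adjusted p under 0.05, and 1 was lower in each. As the names used here cover only probes that the study had called in WN, these are not an independent sample of the genes' probes. The entries that could not be read were nearly all of lowered probes, so lowered probes of these genes may be missing. The 4 other CLU probes were higher in WN by 0.88 to 2.41 and in WH by 1.09 to 2.34. EIF4A2 on C092R059 was higher by 1.68 in WN and 2.11 in WH, and NR5A2 on C016R121 by 1.72 and 1.83. HSPA8 on C007R083, the qPCR probe, was higher by 1.98 and 1.61 with overlapping fish. The exceptions in the authors' values were CTDSP2 on C130R029, at -1.14 in WN and -0.38 in WH, MTHFD1 on C062R014, at -0.91 and -0.12, and TFPI on C202R132, at -1.09 and -1.62. In the fit CTDSP2 passed in WN and TFPI in WH, and MTHFD1 in neither. This CTDSP2 probe is annotated to LOC106583267, so it may report another copy than the member probe. The nucleotide match of C202R132 is LOC106581931, described as a Kunitz-type serine protease inhibitor like bitisilin-3. It may thus report a different gene than TFPI. Another TFPI probe, C082R108, was higher by 0.94 and 0.86.

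Of the members matched to RefSeq genes, few lay near each other in assembly Ssal_v3.1. FRA10AC1 and PPP1R3C (C150R031) on ssa28 and SLMO2 and SRSF6 on ssa15 each had 7 protein-coding genes between them. BLCAP and SDC4 on ssa22 had 14 between them, and B3GALT2 and EIF4A2 on ssa14 had 16, and these 4 pairs were the closest.

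Among fish, the mean over the 72 members ran from -1.58 to -1.19 in CT, -0.15 to 0.37 in WN and 0.11 to 0.29 in WH. The highest of the controls was CT-5 at -1.19, and it was the highest CT fish in 29 of 72 members. The lowest of the warmed fish was WN-5 at -0.15, and it was the lowest warmed fish in 20 members. WN-5 also had the lowest mean over all 11761 complete probes, -0.26, where the other 17 fish lay between -0.14 and -0.02, and the part of this in the members' values was not tested.

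The rule did not name tank or slide, but by keeping the warmed fish apart from the controls it limits the spread within a treatment, so the members' rates below are not read against those of all probes. In a limma fit of the 6 tanks, with an F test over the differences between tanks of one treatment, 0 of 72 members and 0 of 23839 probes (0%) passed at an adjusted p under 0.05. The same test on the authors' values also gave 0 members. At an unadjusted p under 0.05, 1 member (1.39%) and 4.28% of all probes passed. In the authors' values the FMO5-like C025R135 had the largest difference, -1.09 for WN tank 5 minus tank 2, followed by C002R143 at -1.04 in the same tanks. FRA10AC1 was at -1.04 for CT tank 4 minus tank 3, and CLU at 1.02 for WH tank 6 minus tank 1. With 3 fish per tank, these are single differences that did not pass. Across members, WN tank 5 was below tank 2 in 59, with a median difference of -0.26, whereas the median was 0.04 between CT tanks and -0.08 between WH tanks. The members share the same fish, so this count is no test.

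Slides were inferred from a code in the sample names, which do not themselves call it a slide. Each held 3 or 4 arrays. Slide 5 held 4 warmed fish, among them WN-5, and no CT fish, so slide and warming are partly confounded. Slide 1 held no WH fish and slide 2 no WN fish, so slide is partly confounded with WN against WH too. With slide added to treatment, 0 of 72 members passed the F test for slide at an adjusted p under 0.05, where 14 of 23841 probes (0.0587%) did, and the authors' values gave 0 members too. At an unadjusted p under 0.05, 3 members (4.17%) and 12.1% of all probes passed. These were FRA10AC1, with an adjusted p of 0.181 in limma, RNF166, at 0.364, and SUGT1, at 0.403. Within the 4 slides that held both CT and warmed fish, the sign of the difference is fixed by the rule but its size is not. The median over members was 1.69 on slide 1, 1.24 on slide 2, 1.38 on slide 3 and 1.50 on slide 4. Slide 2 held CT-5 as its single control, and its warmed fish were all WH. There the difference of GIMAP7 (C180R027) was 0.16, against 2.10 to 3.03 on the others, and that of DNAJC12 (C136R108) was 0.35 against 1.13 to 1.61. SERPINH1 was even across slides on C009R155, from 2.53 to 3.35. It was uneven on C265R019, from 0.78 on slide 4, with CT-2 as single control, to 5.20 on slide 1, with WN-1 as single warmed fish.

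**Figure D4:**
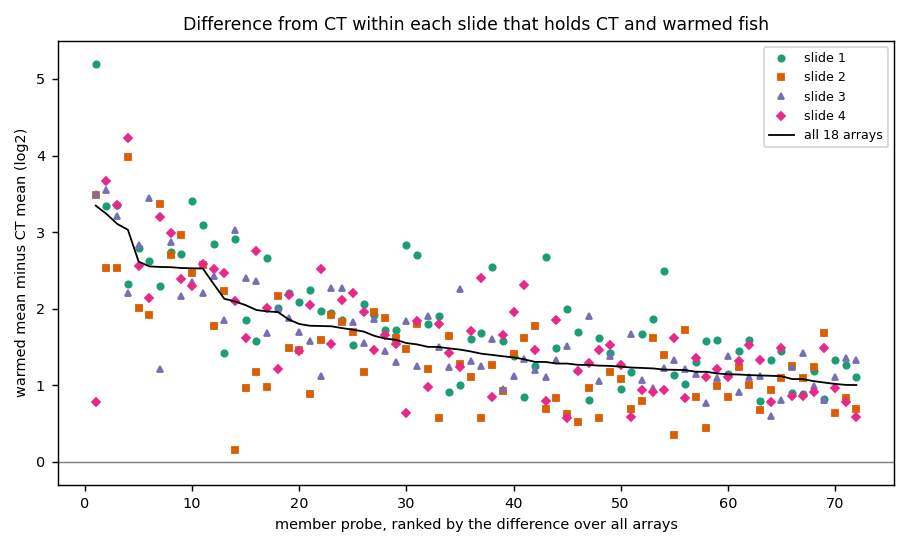
Warmed mean minus CT mean (log2) within each of the 4 slides that hold both CT and warmed fish (points), and over all 18 arrays (line), for the 72 members in order of the latter. Points scatter around the line, and the lowest is GIMAP7 on slide 2, at 0.16.

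Members needed a value on all 18 arrays, so signal above background was partly set by the rule and the counts here are descriptions. In the Cy3 channel 71 members were above background on all 18 arrays, and 65 were brighter there than the median of the probes tested. In the Cy5 channel 63 were above background on all 6 CT arrays and 68 on all 12 warmed arrays. CT fish were above background on 4 of 6 arrays for DHRS13 (C168R126) and SLC39A1. No member was saturated on any array.

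Markers of other cell types were looked up only among the probes named from the WN entries. The entries that could not be read were nearly all of lowered probes, so lowered markers may be missing. Hepatocyte, endothelial, pancreatic and fat cell markers had no such probe. GYPC (C188R134), a membrane protein of red blood cells, was a member, higher by 1.34. The other red cell probes differed among themselves. GFI1B was higher than CT by 0.95 in WN and 0.82 in WH, both ALAS2 probes lay at -0.57 and -0.71 in WN and -0.66 and -0.50 in WH, and haemoglobin (hba4) at -0.90 and -1.12. Of these 4, GFI1B passed in WN and hba4 in WH at an adjusted p under 0.05. The white cell marker lists held no member. Of their probes, MPO was higher by 1.41 in WN and 1.39 in WH, and IGH by 1.22 in WN. The 3 IGHM probes lay between -0.86 and -0.51 without passing. MMP9 lay at 1.15 in both without passing. Of the bile duct markers, KRT8 passed as higher in WN at 0.79, while MUC5AC and MUC2 did not pass, and COL1A1 of fibroblasts was lower in WH, at -0.92. The part of cell composition in the members' differences was not tested.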

How the data were processed

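Liver RNA of 18 fish was hybridized to 18 two-colour arrays. The deposited scanner files give spot intensity as ImaGene read it, with the local background and flags but no correction. For the processed table the authors subtracted background, removed flagged spots, took log2 ratios of Cy5 to Cy3 and normalized by loess. Members were chosen, and described, on these log2 values.

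For tests, log2 ratios were recomputed from the intensities with R 4.3.3 and limma 3.58.1 (normexp, offset 50, loess, flagged spots missing). Of 43689 probes, 23846 were tested, those unflagged and over background by 2 SDs in either channel on 75% of arrays. Values correlated at 0.959 to 0.996 with the authors' values. Fits used lmFit and eBayes, p was adjusted by Benjamini-Hochberg over all probes tested with a threshold of 0.05, and they were tested on simulated data. On each array 8.93% to 17.3% of probes carried a flag, and 58.8% to 81.7% were detected. The treatments were given to whole tanks, but the main fits of treatment took the fish as independent. Their p-values and intervals thus measure the spread between fish, not between tanks. The number of arrays and of tanks limits the precision. No arrays were identical (highest correlation 0.493).

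Members and gene lists were chosen with earlier results of these data known. Gene symbols came from 1493 entries of the study's annotation of probes called in WN, and 417 entries could not be read. Of the named probes tested, 530 lay higher and 954 lower in WN than in CT. Set against the study's own counts of raised and lowered probes in WN, nearly all unread entries were of lowered probes. The study's entries for probes called in WH were not used. Named in full were the 12 largest differences, genes with several member probes, up to 4 members per list, probes nearest each limit, unnamed members and those differing most between tanks or slides. All others were added, after their values were seen, to account for every member. The alternatives tried were the authors' values, other background correction, centring, filters, slide, tank and replicate blocks, other limits and each array left out.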

Additional observations from a re-analysis of the deposited data

Results flagged for a closer look

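In 13 of the 216 groups of 6 fish formed by the 72 members and 3 treatments (6.02%), the highest or lowest fish stood apart from the nearest other by a larger part of the group's range than Dixon's critical value for 6 fish. Chance flags about 1 in 20 groups. The fish below are given with their log2 ratio to the pool.

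In CT, the lowest fish was apart for TFPI, at -2.82 in CT-4, for NALCN, at -1.87 in CT-3, and for BLCAP, at -1.64 in CT-3. The highest CT fish was apart for C105R059, at -0.43 in CT-5. In WN, the lowest fish was apart for SERPINH1 on C044R036, at -1.22 in WN-2, and for SLC39A1, at -0.034 in WN-6. The highest was apart for SRPK1, at 1.36 in WN-3, and for C170R112, at 0.80 in WN-2. In WH, the lowest fish was apart for LOC106570920, at -0.39 in WH-4, and for PRMT2, at -0.71 in WH-3. The highest was apart for GAPDH, at 1.57 in WH-1, for RNF166, at 1.28 in WH-1, and for TFPI, at 0.58 in WH-3. TFPI was the single member with a fish apart in more than 1 treatment. No fish was apart in more than 2 members.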

How the results depend on the processing

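The number of probes meeting the rule was 72. It was 84 on the scanner values, which kept 67 of the 72. It was 47 with those values centred on the array median, which kept 37, and 128 with slide effects taken out of the authors' values, which kept 61. The slide fit protected the treatment differences while taking out spread within treatments, which can itself make the rule easier to meet. How far this or anything else changed the counts was not tested. A least difference of 1.5 left 31 probes. Leaving out 1 array gave 64 to 93 probes. With the limit between WN and WH at 0.25 or 1, or the least difference at 0.75, the count stayed within 1.5 times of 72. The differences of the 72 members from CT all stayed above 0, and moved by less than the spread between fish on the scanner values, within slides and without any 1 array. Median centring moved 4 of them by more, PPP1R3C on C239R156 to 1.70, SLC39A1 to 1.28, OXCT1 to 0.62 and SDC4 to 0.97. The lowest warmed fish stayed above the highest CT fish in all 72 members on the scanner values. With slide effects taken out it did so in 67, with a lowest gap of -0.15. With median centring it did so in 42, with a lowest gap of -0.56. The rule had selected on this gap in values from the same arrays. The share of all probes without overlap was not counted on these other values. These counts are thus descriptions, and nothing is read from them.

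The rule used both contrasts with CT, and the share of all probes passing was not counted under the alternatives. The counts below are thus descriptions, and nothing is read from them. Of the limma counts, the members called in WN v CT ranged from 51 under median centring to 72, and those in WH v CT from 63 to 71. Without any 1 array they were 69 to 72 and 69 to 71. Between WH and WN, tanks or slides, 0 members passed under every alternative run. With the replicate number as a block, 71 members passed in WN v CT and 71 in WH v CT. Replicate numbers do not pair the fish, since the correlation of deviations was over 0.1 in 1 of 18 same-numbered pairs. Depth on arrays is signal over background, which limits the CT values of SERPINH1 on C265R019 most.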
